A study of Rattus norvegicus with 3 samples.

Results

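The genes described here are 10 components of the perineuronal net and of the proteoglycan matrix of the brain: Acan, Bcan, Ncan, Vcan, Hapln1, Hapln2, Hapln4, Tnr, Tnc and Ptprz1. They were taken by exact gene name from tables of 30957 genes, where each name stood in 1 row, and were chosen because this matrix limits plasticity of the cortex after injury. RNA sequencing covered the motor cortex of 3 male Sprague-Dawley rats, numbered 12, 24-4 and 33, with 1 library each. Every rat had cerebral ischemia and reperfusion, in which blood flow to the brain is stopped and restored, and electroacupuncture at the GB20 (Fengchi) point. The labels give a time of 8 weeks without its starting point, and give neither the age of the rats nor the way the vessel was blocked. All rats form 1 group, so levels and the spread between treated animals can be described, whereas an effect of ischemia or of acupuncture cannot.

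Perineuronal nets are dense coats of extracellular matrix around the cell body and proximal dendrites of certain neurons, in cortex mostly the fast-spiking interneurons that contain parvalbumin. Their backbone is hyaluronan, a sugar polymer made at the cell surface. Chondroitin sulfate proteoglycans of the lectican family bind to it, link proteins fasten the lecticans to hyaluronan, and tenascin-R ties lecticans together. A looser matrix of the same families fills the space between cells and surrounds nodes of Ranvier, the gaps in the myelin sheath. Nets close critical periods of cortical plasticity, and chondroitin sulfate around a lesion restrains axon growth.

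The unit is FPKM, the number of fragments for each kilobase of a gene and each 1000000 fragments of the library, so that levels of different genes can be compared within a library. Estimated depths ranged from 13000000 to 17230000 fragments, and the median of all tested genes was 3.45, 3.43 and 3.56 on the log2(FPKM + 1) scale in rats 12, 24-4 and 33. A gene of 1 kb with an FPKM of 1 then rests on 13.0 to 17.23 fragments, and a count of 3 fragments corresponds to an FPKM of 0.174 to 0.231 for such a gene. A mean FPKM of 1 or more was required for tests and counts. It was met by 13754 genes, the 10 genes among them. The libraries differed in marker RNA of cell types before any of the 10 genes is considered. Rat 33 held the most choroid plexus and reactive astrocyte marker RNA and the least neuronal marker RNA. Values are given with the cell type markers. In bulk tissue, fewer cells of a type and less RNA per cell cannot be told apart.

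All 10 genes were expressed in all 3 rats, at mean levels that spanned from 1.33 to 79.7 FPKM. Brevican (Bcan) had the highest mean, at 79.7 ± 20.3 FPKM (SD, n = 3 rats, here and below), followed by Hapln2 at 57.7 ± 24.1 and Hapln4 at 57.1 ± 30.1. Ptprz1 with 36.0 ± 15.2 FPKM and Ncan with 35.8 ± 14.3 formed a middle level. Below them lay Hapln1 at 7.59 ± 2.44 FPKM, Tnc at 5.90 ± 5.13, Tnr at 5.25 ± 1.54 and Vcan at 4.30 ± 1.84. Aggrecan (Acan), the lectican most characteristic of nets around parvalbumin neurons, had the lowest mean, 1.33 ± 0.452 FPKM. In this order, 6 of the 9 differences between neighbours on the log2(FPKM + 1) scale were smaller than their SD over rats. The exceptions were Bcan above Hapln2 (0.50 ± 0.37), Ncan above Hapln1 (2.06 ± 0.91) and Vcan above Acan (1.15 ± 0.71), each with the same sign in all rats.

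**Figure D1:**
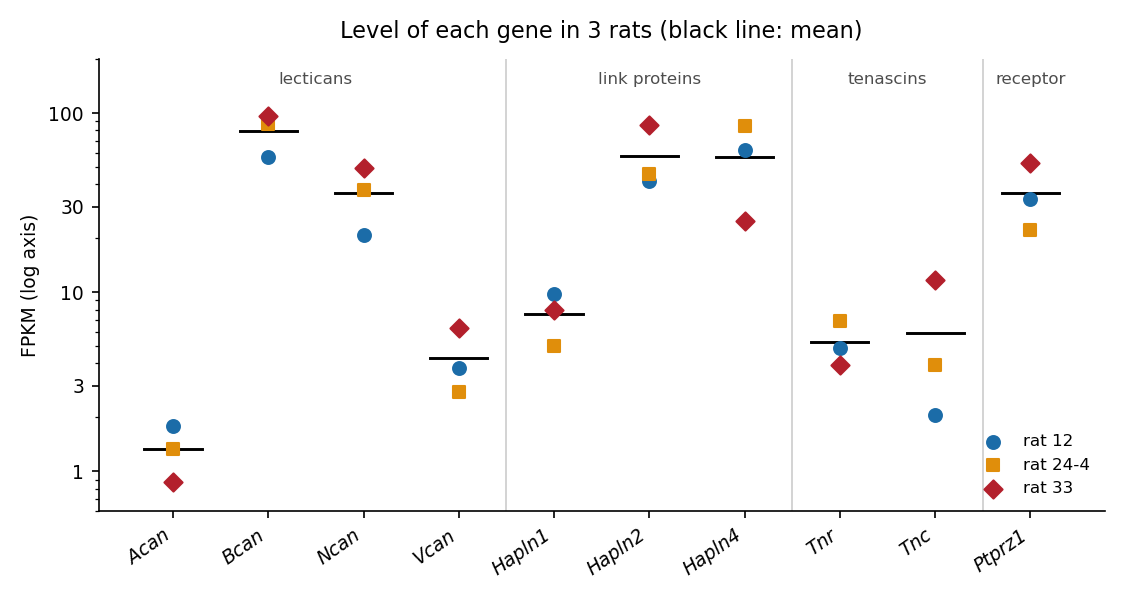
FPKM (log axis) of the 10 genes in rats 12, 24-4 and 33, grouped by role, with the mean as a black line. Bcan, Hapln2 and Hapln4 lie highest and Acan lowest, and rat 33 is the highest for Tnc and the lowest for Hapln4.

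Lecticans are core proteins that bind hyaluronan at one end and tenascins at the other and carry chondroitin sulfate chains between them. Bcan, made by astrocytes and oligodendrocyte precursors, stood at 56.8, 86.5 and 95.7 FPKM in rats 12, 24-4 and 33 (chromosome 2, 187359677 to 187372657, Rnor_6.0, as are all gene positions below). Ncan, which encodes neurocan, had 20.9, 37.1 and 49.5 in the same order (chromosome 16, 21050243 to 21076707). Rat 12 was thus the lowest and rat 33 the highest for both. Vcan, which encodes versican, a lectican of oligodendrocyte precursors and nodes, had 3.77, 2.79 and 6.35 FPKM (chromosome 2, 18490102 to 18565842). Acan had 1.78, 1.33 and 0.878 FPKM (chromosome 1, 140762758 to 140824441), with rat 33 lowest. At these levels Acan rested on an estimated 27.3, 23.0 and 11.4 fragments per kilobase, the fewest of the 10 genes in every rat.

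Within a rat, shares of the summed lectican FPKM do not depend on how libraries were scaled. Bcan made up 68.2%, 67.8% and 62.8% of the lectican sum in rats 12, 24-4 and 33, and Ncan 25.1%, 29.0% and 32.5%. Vcan took 4.53%, 2.18% and 4.17%, and Acan 2.14%, 1.04% and 0.576%. Bcan was thus the main lectican transcript in every rat, and the share of Acan was largest in rat 12 and smallest in rat 33. The ratio of Bcan to Acan FPKM was 31.9, 64.9 and 109 in rats 12, 24-4 and 33. On the log2(FPKM + 1) scale Bcan exceeded Ncan by 1.18 ± 0.23, Ncan exceeded Acan by 3.92 ± 0.89, and Ncan exceeded Vcan by 2.77 ± 0.57. Acan minus Vcan was -1.15 ± 0.71. Each of these 4 differences had the same sign in all rats (exact sign-flip permutation test, two-sided, p = 0.25, adjusted p = 0.286 over 16 pairs). With 3 rats 0.25 is the smallest p possible, so no pair could pass 0.05.

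Link proteins stabilise the bond between a lectican and hyaluronan, and the main transcript of this family differed between rats, while that of the lecticans was Bcan in each. Hapln4, a link protein made by neurons and found in nets, had levels of 61.9, 84.4 and 24.8 FPKM in rats 12, 24-4 and 33 (chromosome 16, 21081377 to 21089508). Hapln2, a link protein of nodes of Ranvier made by oligodendrocytes, had 41.6, 45.9 and 85.4 (chromosome 2, 187396349 to 187401786). Rat 33 was lowest for Hapln4 and highest for Hapln2. Hapln1, which is needed for compact nets, had 9.81, 4.99 and 7.98 FPKM (chromosome 2, 18354542 to 18419071), with rat 24-4 lowest. Hapln3, the remaining member of the family and not among the 10 genes, had 1.87, 1.58 and 1.39 FPKM.

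Of the summed FPKM of the 4 link protein genes, Hapln4 took 53.7%, 61.6% and 20.8% in rats 12, 24-4 and 33, and Hapln2 36.1%, 33.6% and 71.4%. Hapln4 was thus the main link protein transcript in rats 12 and 24-4, and Hapln2 in rat 33. The family sum itself was 115, 137 and 119.6 FPKM. Hapln2 minus Hapln4 on the log2(FPKM + 1) scale was -0.56, -0.86 and 1.74, with a mean of 0.11 ± 1.42 (exact sign-flip p = 1). Without rat 33 the mean difference was -0.71. Hapln1 stayed below both, with Hapln1 minus Hapln4 at -2.63 ± 1.16 and Hapln2 minus Hapln1 at 2.74 ± 0.67, each of the same sign in all rats (exact sign-flip p = 0.25).

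**Figure D2:**
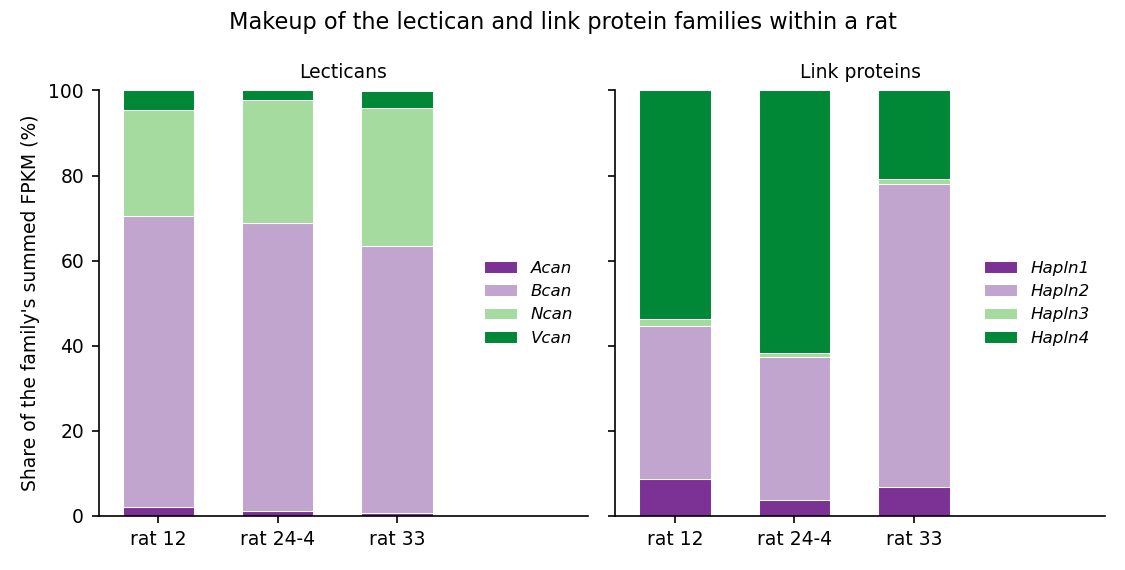
Share (%) of each gene in the summed FPKM of its family within rats 12, 24-4 and 33, for the 4 lecticans and the 4 link proteins. Bcan is the largest lectican share in each rat, at 62.8% to 68.2%, and Acan the smallest, at 0.576% to 2.14%, whereas Hapln2 takes 71.4% of the link proteins in rat 33 and 33.6% to 36.1% in the others.

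In the deposited annotation each lectican gene lies beside a link protein gene, with 0 genes between them. Ncan and Hapln4 face each other tail to tail across 4.67 kb, Acan and Hapln3 across 2.85 kb, and Vcan and Hapln1 across 71.0 kb. Bcan and Hapln2 lie on the same strand, 23.7 kb apart. The following comparison of neighbours was chosen after the values were seen. Ncan minus Hapln4 was -1.52, -1.17 and 0.97 on the log2(FPKM + 1) scale in rats 12, 24-4 and 33, a change of sign between neighbouring genes. Bcan minus Hapln2 was 0.44, 0.90 and 0.16, Vcan minus Hapln1 was -1.18, -0.66 and -0.29, and Acan minus Hapln3 was -0.05, -0.14 and -0.35, with the sign shared by all rats in each case. Whether fragments at the ends of facing genes were assigned by strand is not given in the sources used here.

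Promoters of both neighbouring sets with high expression, and of Tnc, which had the widest spread between rats, are shown for reference. They are the 250 bases before the transcription start, 5′ to 3′ on the strand of the gene, from RefSeq on build GRCr8, whose coordinates differ from those of Rnor_6.0 given elsewhere. Bcan is at chr2:175765315-175765564, minus strand, Hapln2 at chr2:175794439-175794688, minus strand, Ncan at chr16:19335657-19335906, plus strand, Hapln4 at chr16:19375174-19375423, minus strand and Tnc at chr5:82476132-82476381, minus strand. Capitals mark matches on either strand to the TATA box TATAAA, the GC box GGGCGG, the CCAAT box, the AP-1 motif TGANTCA or the STAT motif TTCNNNGAA.

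Bcan: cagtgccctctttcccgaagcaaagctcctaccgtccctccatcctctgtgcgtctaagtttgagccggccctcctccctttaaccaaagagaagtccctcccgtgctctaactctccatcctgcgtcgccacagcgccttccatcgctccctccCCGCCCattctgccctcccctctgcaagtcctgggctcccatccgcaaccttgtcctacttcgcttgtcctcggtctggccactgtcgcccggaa

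Hapln2: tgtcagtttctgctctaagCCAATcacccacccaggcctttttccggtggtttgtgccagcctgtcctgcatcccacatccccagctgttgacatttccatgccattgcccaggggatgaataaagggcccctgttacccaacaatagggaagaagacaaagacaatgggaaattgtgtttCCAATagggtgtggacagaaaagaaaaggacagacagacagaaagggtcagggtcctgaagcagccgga

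Ncan: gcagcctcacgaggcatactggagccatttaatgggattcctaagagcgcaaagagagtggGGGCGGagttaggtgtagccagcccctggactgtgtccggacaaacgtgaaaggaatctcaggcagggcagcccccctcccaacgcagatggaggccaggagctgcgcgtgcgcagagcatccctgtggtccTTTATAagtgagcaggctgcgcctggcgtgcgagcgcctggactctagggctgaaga

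Hapln4: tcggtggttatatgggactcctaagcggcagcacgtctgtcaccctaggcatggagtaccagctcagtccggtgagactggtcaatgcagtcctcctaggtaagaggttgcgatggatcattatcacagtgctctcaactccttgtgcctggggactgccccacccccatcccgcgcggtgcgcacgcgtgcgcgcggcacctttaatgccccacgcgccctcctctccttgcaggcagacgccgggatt

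Tnc: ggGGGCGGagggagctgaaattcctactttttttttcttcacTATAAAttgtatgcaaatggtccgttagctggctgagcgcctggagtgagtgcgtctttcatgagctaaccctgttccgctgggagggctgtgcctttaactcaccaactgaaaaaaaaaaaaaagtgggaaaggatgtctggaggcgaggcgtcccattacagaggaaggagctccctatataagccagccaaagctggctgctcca

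A GC box stood in the promoters of Bcan, Ncan and Tnc (1 match each), against 30.5% of 33469 RefSeq promoters of this length. TATAAA stood in those of Ncan and Tnc (1 match each, 12.9% of promoters), and CCAAT in that of Hapln2 (2 matches, 34.0%). The Hapln4 promoter held 0 matches to these 5 motifs. Matches to TGANTCA and TTCNNNGAA, found in 6.34% and 7.67% of promoters, were absent from these 5 windows. No searched sequence overlapped another in these promoters, and a match is a description of letters only.

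Tenascins are large multimeric glycoproteins that bind lecticans. Tnr, which encodes tenascin-R of nets and nodes, had levels of 4.87, 6.94 and 3.94 FPKM in rats 12, 24-4 and 33 (chromosome 13, 77485113 to 77678437), with rat 33 lowest. Its locus overlaps the end of the gene listed as Rn60_13_0822.1 (ENSRNOG00000051261, 77264239 to 77485250, same strand), which had 2.03, 2.34 and 1.07 FPKM. The overlap runs from 77485113 to 77485250. How fragments were divided between these genes was not tested, which leaves the level of Tnr uncertain. Tnc encodes tenascin-C, which in the adult brain is low and is made by astrocytes after injury. It had 2.06, 3.91 and 11.7 FPKM (chromosome 5, 79789671 to 79874671), with rat 33 well above the others. Tnr minus Tnc was 0.94, 0.69 and -1.37 on the log2(FPKM + 1) scale, so tenascin-R transcripts exceeded tenascin-C transcripts in rats 12 and 24-4 and the reverse held in rat 33. Its mean of 0.09 ± 1.27 (exact sign-flip p = 1) was -0.34 without rat 12 and -0.21 without rat 24-4.

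Ptprz1 encodes a receptor tyrosine phosphatase of glia that carries chondroitin sulfate and whose secreted form, phosphacan, is itself a net proteoglycan. It stood at 33.3, 22.4 and 52.3 FPKM in rats 12, 24-4 and 33 (chromosome 4, 49941304 to 50140762), with rat 24-4 lowest and rat 33 highest. The deposited values are per gene, so receptor and secreted forms were not separated.

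Of the 10 genes, 6 (Bcan, Ncan, Vcan, Hapln2, Tnc and Ptprz1) were highest in rat 33, as were 42% of all tested genes. Another 3 (Acan, Hapln4 and Tnr) were lowest in rat 33, as were 28.9% of tested genes, and Hapln1 lay in between. The order of rats 33, 24-4 and 12 was shared by Bcan, Ncan, Hapln2 and Tnc and by 21.3% of tested genes. The order 33, 12 and 24-4 was shared by Vcan and Ptprz1 and by 20.7%, and the order 24-4, 12 and 33 by Hapln4 and Tnr and by 17.7%. Acan followed the order 12, 24-4 and 33, found in 11.2% of tested genes, and Hapln1 the order 12, 33 and 24-4, found in 12.6%. Since 3 rats allow only 6 orders, no gene was ranked by likeness to any of these.

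**Figure D3:**
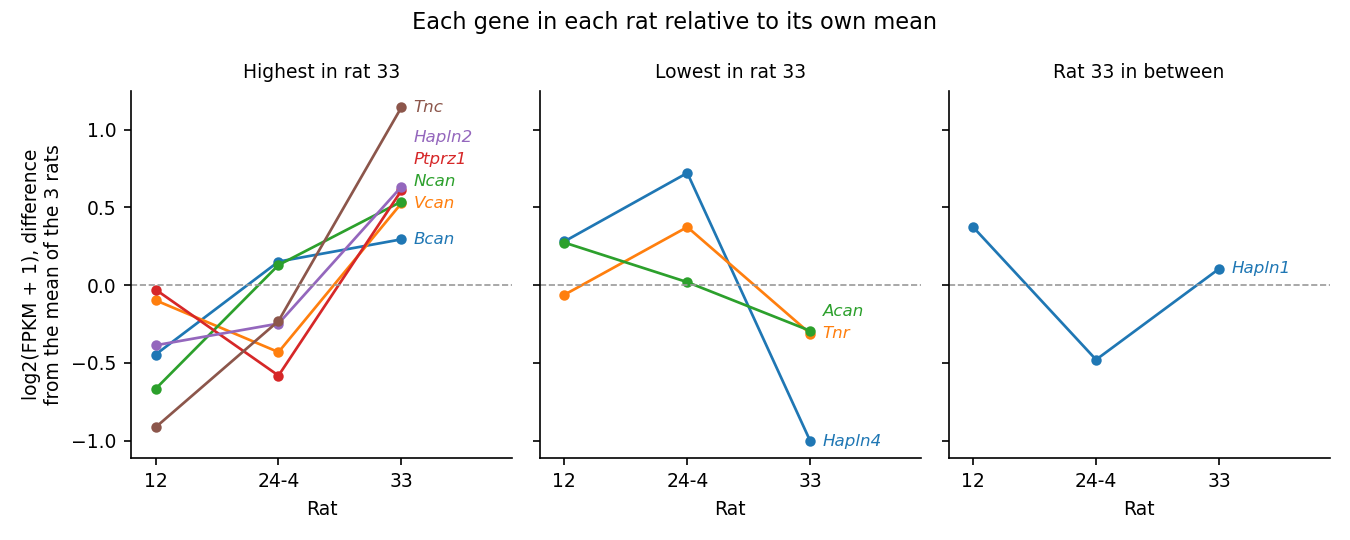
Difference of each gene from its own mean over the 3 rats, on the log2(FPKM + 1) scale, with genes split by whether rat 33 was the highest, the lowest or in between. In rat 33 Tnc lies 1.14 above its mean, Hapln4 is the farthest below its mean, and Hapln1 is the gene in between.

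The fold between the highest and the lowest rat was largest for Tnc (5.70) and Hapln4 (3.40). Ncan (2.37), Ptprz1 (2.34), Vcan (2.28), Hapln2 (2.05) and Acan (2.03) also reached 2-fold. Hapln1 (1.97), Tnr (1.76) and Bcan (1.68) did not. Thus 7 of 10 genes reached 2-fold, against 30% of tested genes, and the median fold was 2.17 against 1.64. The median SD over rats was 0.52 on the log2(FPKM + 1) scale against 0.32 over all tested genes. The count of 7 changed with the rats compared: it was 0 without rat 33 (10.5% of tested genes), 4 without rat 12 (18.3%) and 5 without rat 24-4 (19.6%). With medians set equal, Hapln2 had a fold of 1.90 and 6 genes reached 2-fold.

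None of the 10 genes passed the test of variability between rats. After adjustment, limma called 0 of 10 at the 0.05 level, against 0.102% of tested genes (14). Without adjustment 2 of 10 were below 0.05, against 5.96%. These were Tnc (limma adjusted p = 0.630) and Hapln4 (limma adjusted p = 0.739). This count of 2 was 0 without rat 33, 1 (Tnc) without rat 24-4, and 3 without rat 12, where Ptprz1 was added. Tnc lay at the percentile 97.2 of tested genes by fold between rats and Hapln4 at 92.1. In data simulated from the fitted variance model, the limma test recovered 4% of genes with a 4-fold difference in 1 rat and 72% with 16-fold. Differences of the size seen here thus lie mostly below what it can call under that model.

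**Figure D4:**
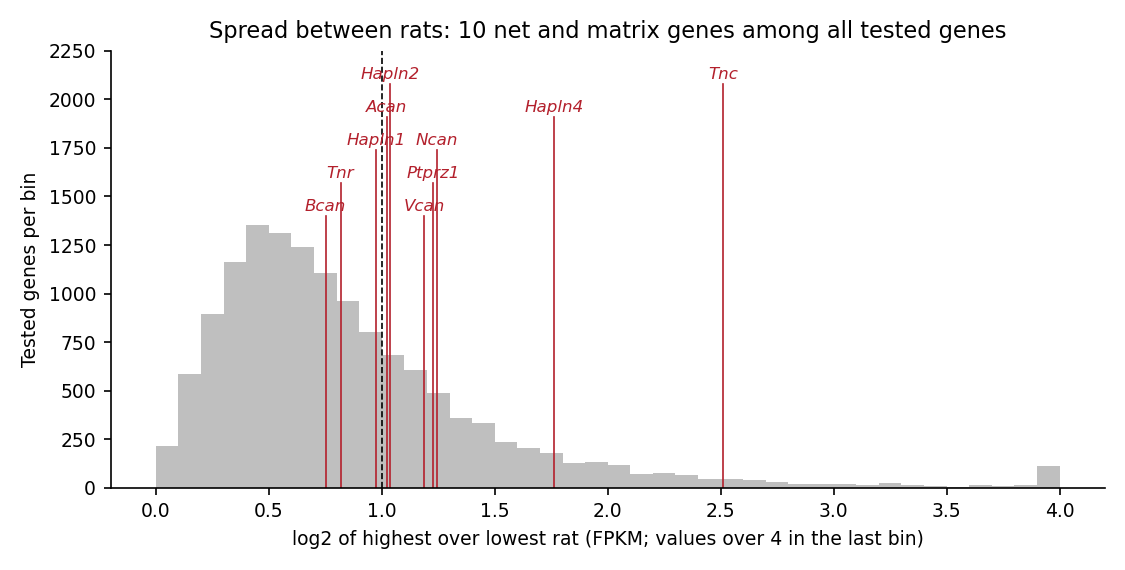
Histogram of log2 of the highest over the lowest rat for 13754 tested genes, with the 10 genes as red lines and 2-fold as a dashed line. Tnc and Hapln4 lie in the right tail, and Bcan, Tnr and Hapln1 lie below 2-fold.

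Markers of cell types also differed between rats. For the counts that follow, 42% of all tested genes were highest and 28.9% lowest in rat 33. Summed FPKM of 6 markers of parvalbumin interneurons was 248, 209 and 77.5 in rats 12, 24-4 and 33, and 5 of the 6 were lowest in rat 33. Pvalb itself had 158, 149 and 51.8 FPKM, while Acan minus Pvalb was -5.83, -6.00 and -4.81 on the log2(FPKM + 1) scale, an SD of 0.64 against 0.28 for Acan alone. The FPKM of Acan lay near the 1 that is added on this scale, which narrows its SD. These SDs therefore do not show whether Acan varied less alone than against Pvalb. Markers of other GABAergic neurons summed to 313, 369 and 212 (5 of 5 lowest in rat 33), and those of glutamatergic neurons to 1130, 1390 and 647 (5 of 6 lowest), with Sst at 135, 236 and 125 FPKM and Slc17a7, which loads glutamate into vesicles, at 421, 709 and 367. Acan, Hapln4 and Tnr, lowest in rat 33, therefore moved in the same direction as neuronal markers in that library. Oligodendrocyte markers, among them Mbp, with which Tnr was paired, moved the other way. The part of neuronal and oligodendrocyte markers in the result was not tested.

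Sums of oligodendrocyte and astrocyte markers were highest in rat 33. The 8 oligodendrocyte markers summed to 5472, 7124 and 12415 FPKM in rats 12, 24-4 and 33 (8 of 8 highest in rat 33), and Hapln2 minus Mbp was -5.78, -6.29 and -5.98 on the log2(FPKM + 1) scale, an SD of 0.26 against 0.55 for Hapln2 alone. The 7 matched markers of reactive astrocytes summed to 366, 1142 and 2056, with Gfap, an intermediate filament gene, at 271, 937 and 1585. Of the 6 tested, 5 were highest in rat 33, and S100a10 (26.5, 66.3 and 58.7) was highest in rat 24-4. Tnc minus Gfap was -6.48, -7.58 and -6.96, an SD of 0.55 against 1.05 for Tnc alone. General astrocyte markers summed to 545, 636 and 731, with Aldoc highest by mean at 269, 286 and 232, and 3 of 6 were highest in rat 33. Slc1a3 (29.7, 30.2 and 111) and Gja1 (80.2, 99.9 and 187) were highest there, whereas Aldoc was lowest in rat 33 and Slc1a2 (153, 184 and 161) and Aqp4 (8.64, 29.4 and 26.7) were highest in rat 24-4 (these 4 besides Aldoc were chosen after their values were seen). Ncan minus Aldoc was -3.62, -2.92 and -2.21, an SD of 0.71 against 0.61 for Ncan alone, and Tnr minus Mbp was -8.64, -8.85 and -10.1, an SD of 0.80 against 0.35 for Tnr alone. Of the 5 pairs with a cell type marker, the SD on this scale was thus smaller than that of the gene alone in 2 and larger in 3. The 3 include Acan minus Pvalb, where the scale narrows the SD of Acan. Oligodendrocyte precursor markers, led by Olig1 (59.3, 93.4 and 102), summed to 121, 206 and 201. The part of these markers in the levels of Hapln2, Tnc, Ncan, Bcan and Ptprz1 was not tested.

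Markers of other components of the tissue differed as well. Microglial markers summed to 66.0, 102.6 and 170 FPKM in rats 12, 24-4 and 33 (Csf1r at 23.8, 40.8 and 69.3), and endothelial markers to 53.9, 80.7 and 70.8 (Cldn5 at 33.6, 62.2 and 42.6). Fibroblast and meningeal markers summed to 995, 669 and 1158, of which Ptgds made up 943, 644 and 1006, with Col1a2 listed at 0 in all rats. Choroid plexus markers, from an epithelium that is not part of cortex, summed to 3314, 128 and 13071, with Ttr at 3233, 124 and 12747. Vcan and Ptprz1 shared the order of rats of the choroid plexus and fibroblast sums, as did 20.7% of tested genes. In the fibroblast list Ptgds, Igf2 and Col3a1 had this order, and Col1a1 and Slc6a13 did not. The part of these tissues in the levels of Vcan and Ptprz1 was not tested.

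The wider pathway was read through 83 genes in 7 lists, of which 80 were matched and 71 tested. After adjustment, limma called 0 of the 71, and 13 (18.3%) were below 0.05 without adjustment, against 5.96% of all tested genes. A fold of at least 2 between rats was reached by 29 (40.8%), against 30%. In rat 33, 33 (46.5%) were highest, against 42%, and 27 of the 71 lowest, against 28.9%. The median fold was 1.77, against 1.64.

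Genes that make and clear hyaluronan had levels of at most 11.0 FPKM in any rat. The hyaluronidase genes Hyal2 (7.44, 10.1 and 10.4 FPKM in rats 12, 24-4 and 33) and Hyal1 (6.99, 6.60 and 11.0) had the highest means, and Cemip, a hyaluronan-degrading protein gene, had 4.81, 7.55 and 3.48. The synthase gene Has1 had 0.0311, 0 and 0.0367, below the level of 3 fragments for a gene of 1 kb. Of 4 tested genes of this list, 1 reached 2-fold, against 30% of all tested genes.

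Genes of chondroitin chain synthesis had similar medians in the 3 rats. The median on the log2(FPKM + 1) scale was 3.43, 3.47 and 3.45 in rats 12, 24-4 and 33. Of 11 tested genes, 2 reached 2-fold, against 30% of all tested genes. B3gat3, which completes the linker between protein and chain, had 77.1, 106 and 58.0 FPKM, and the chain polymerizing factor Chpf 33.9, 47.0 and 24.7. Csgalnact1, which starts the chain, had 13.1, 5.09 and 9.90, and Csgalnact2 2.54, 1.15 and 2.49. Both Csgalnact genes were lowest in rat 24-4.

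Sulfation genes, which set where chondroitin chains carry sulfate, had a median of 1.93, 2.02 and 1.81 on the log2(FPKM + 1) scale. Of 9 tested genes, 3 reached 2-fold, against 30% of all tested genes. The 4-O-sulfotransferase genes Chst12 (10.2, 13.6 and 9.33 FPKM) and Chst11 (4.19, 5.72 and 6.66) had the highest means. Chst13 was lowest, at 0.446, 0.340 and 0.601. Dse, the epimerase that turns chondroitin into dermatan sulfate, had 1.48, 0.966 and 3.96, with rat 33 highest.

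Receptors of the matrix had 5 of 12 tested genes highest in rat 33 (42% of all tested genes) and 7 lowest (28.9%). Of these 12, 6 reached 2-fold (30%). Cntn1, an adhesion protein gene, had the highest mean (112, 55.9 and 129 FPKM in rats 12, 24-4 and 33). Ptprs, the receptor phosphatase that binds chondroitin sulfate and halts axons, followed at 78.8, 87.6 and 68.4. Cd44, the hyaluronan receptor of reactive glia, had 2.04, 5.71 and 17.1 (limma adjusted p = 0.428), the order of rats of Tnc and of 21.3% of tested genes. Plxna4, listed as Plxna4a and a coreceptor of semaphorins, had the lowest mean, with 6.89, 11.8 and 3.99.

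Among secreted and associated proteins linked to nets, the pentraxin genes Nptxr and Nptx1, whose products gather at synapses, had the highest means. Nptxr had 289, 253 and 241 FPKM in rats 12, 24-4 and 33 and Nptx1 112, 127 and 117, folds of 1.20 and 1.13 between rats. Sema3a, a repulsive guidance cue held in nets by chondroitin sulfate, had 6.09, 1.93 and 1.27 (limma adjusted p = 0.814), with rat 12 above the others. Of 7 tested genes, 1 reached 2-fold (30% of all tested genes) and 4 were lowest in rat 33 (28.9%).

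Proteases that cleave lecticans and their inhibitors had the largest median fold of the 7 lists. Of 11 tested, 9 reached 2-fold (30% of all tested genes) and 9 were highest in rat 33 (42%), with a median fold of 3.91, and 6 had an unadjusted limma p under 0.05 (5.96%). In rat 33 the median of this list lay 0.75 above the mean of the rats on the log2(FPKM + 1) scale. Medians of all non-neuronal marker lists lay above it too. They were 2.6 for choroid plexus, 1.16 for reactive astrocytes, 1.08 for fibroblasts and meninges and 0.72 for microglia. Oligodendrocytes had 0.59, astrocytes 0.58, endothelium 0.31 and oligodendrocyte precursors 0.25. Markers of parvalbumin, other GABAergic and glutamatergic neurons lay below it, at -0.73, -0.51 and -0.94. The part of these markers in the protease list was not tested. Timp2 (98.1, 170 and 174 FPKM) and Timp3 (25.9, 15.7 and 46.4), inhibitors of metalloproteinases, had the highest means. Mmp9, a gelatinase gene, went the other way in rat 33, at 1.56, 4.55 and 0.474 (limma adjusted p = 0.744). Mmp3 was listed at 0, 0.123 and 1.18.

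The remaining matrix and surface proteoglycans were led by the testican genes Spock2 (248, 269 and 158 FPKM in rats 12, 24-4 and 33) and Spock1 (125, 107 and 115). Fmod, which encodes the collagen-binding proteoglycan fibromodulin, had 11.3, 2.76 and 40.2, a fold of 14.5 (limma adjusted p = 0.165). Its order of rats was that of the fibroblast and choroid plexus sums and of 20.7% of tested genes. Omd and Ogn were listed at 0 in all rats. Of 17 tested genes, 7 reached 2-fold (30% of all tested genes) and 9 were highest in rat 33 (42%).

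**Figure D5:**
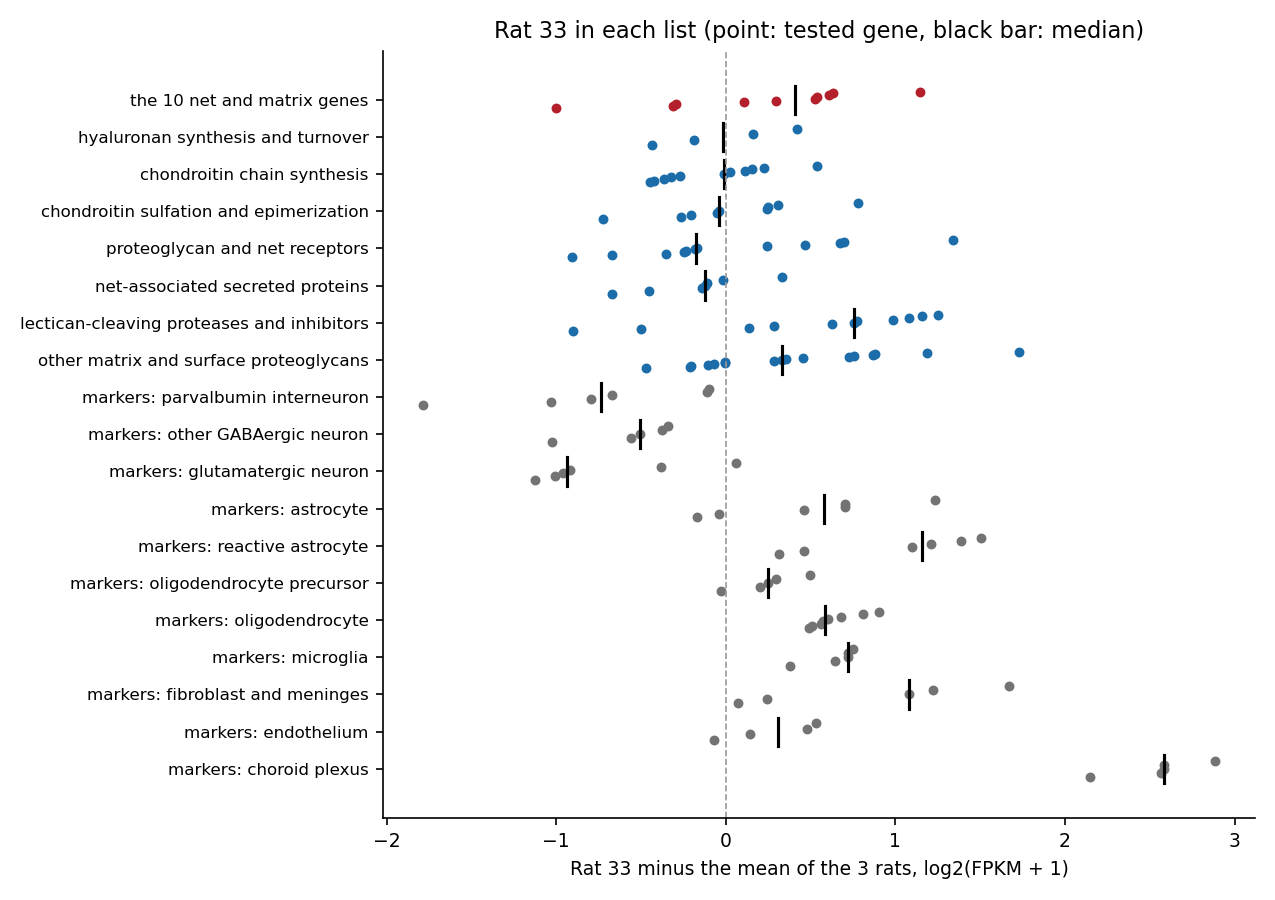
Value in rat 33 minus the mean of the 3 rats, on the log2(FPKM + 1) scale, for each tested gene of the 10 net and matrix genes (red), the 7 pathway lists (blue) and the cell type markers (grey), with medians as black bars. The 10 genes span from Hapln4 to Tnc (1.14) with a median of 0.41, the protease list has 0.75, parvalbumin markers -0.73 and oligodendrocyte markers 0.59, and the median of all tested genes is 0.07.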

How the data were processed

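Messenger RNA of motor cortex was sequenced from 3 rats of 1 group, 1 library each. The rats are separate animals. The authors deposited FPKM values, computed from normalized fragment counts by a script per the series' design text. The submitters' processing notes list HISAT2 2.0.4, StringTie 1.3.0 and the build Rnor_6.0. How counts were normalized, and whether strand was used, is not given in the sources used here. A very abundant transcript lowers the other FPKM of its library, and 26.6%, 14.4% and 20.9% of all FPKM in rats 12, 24-4 and 33 came from mitochondrial DNA. In all rats 11974 genes were listed at 0, which can be a failed estimate.

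Library depth was read from short loci (400 bp or less), where low values step by whole fragments. It came to 15330000, 17230000 and 13000000 fragments in rats 12, 24-4 and 33, at which 93.2%, 93.0% and 93.3% of 634, 610 and 652 values were whole within 0.02. An FPKM of 1 for a 1 kb gene then has an exact 95% Poisson interval of 8.64 to 25.2, 10.1 to 27.5 and 6.92 to 22.2 fragments. These ranges and the floor of 3 fragments reflect counting error alone.

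The scale was log2(FPKM + 1), which understates differences of low genes, and genes needed a mean FPKM of 1. Variability between rats was tested with limma 3.58.1 in R 4.3.3: an intercept was fitted per gene, and its residual variance was compared, one-sided, with a trended and robust prior variance by an F distribution. Benjamini-Hochberg adjustment ran over all tested genes, with a threshold of 0.05. Simulated data with the level of each of the 13754 genes were run through the procedure, which made 3 false calls. Their values were drawn from the fitted variance model, so this does not check whether the model holds for these libraries. Differences within rats used an exact two-sided sign-flip test. The rest was done in Python 3.11.15 with numpy 2.4.6, with pandas 2.3.3 and with scipy 1.17.1.

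The 10 genes and the lists were chosen with earlier results of these data known. Names were found for 153 of 159 listed genes, for 3 through a synonym in RefSeq (GRCr8), and a repeated name used its row with the higher mean. The text names from a pathway list its 2 highest genes by mean, its lowest and the one with the largest fold between rats, and from a marker list its highest and those at 0. RefSeq promoters were matched for 9 of the 10 genes. Alternatives were other pseudocounts, filters, priors and scalings, and leaving out each rat.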

Additional observations from a re-analysis of the deposited data

How the results depend on the processing

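Of the 10 genes, 0 were called variable under each of the 11 alternatives run (other pseudocount, filters, priors, scalings and each rat left out). Without adjustment 2 were below 0.05 as reported and 0 to 3 with 1 rat left out. With no filter it was 1, since Hapln4 no longer passed (limma adjusted p = 0.985). The count over all genes tested with limma was 14 as reported. It was 23 with a pseudocount of 0.1, 9 with a prior without trend, 54 with medians set equal and 7 with quantile normalization. It was 0 with a prior that was not robust (733 genes at an unadjusted p under 0.05), with a mean FPKM of at least 0.1 (903), with no filter (864) and with the mitochondrial genome left out (683). Leaving out 1 rat gave 0 to 104, and the cause of these changes was not tested. The count of genes with a 2-fold difference was 6 or 7 under the scalings and the lower filter, and ranged from 0 to 5 with a rat left out, where only 2 rats are compared.

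The order of rats held for all 10 genes with medians set equal and after rescaling each library to 1 sum. With the mitochondrial genome left out it held for 9, and Hapln2 then had 45.0, 43.7 and 83.4 in rats 12, 24-4 and 33. In each of these scalings 6 genes were highest and 3 lowest in rat 33. Of 84 pair differences recomputed, 79 kept their sign and moved by less than their SD, 2 moved further and 3 changed sign. Leaving out 1 of 3 rats can change a sign but cannot move a mean by as much as its SD over rats. A larger move was thus possible only with the other pseudocount. The 2 that moved further both involved Acan, with a pseudocount of 0.1. Bcan minus Acan had a mean of 5.10 as reported and 5.82 then, and Acan minus Pvalb -5.55 and -6.27. The sign changes were Hapln2 minus Hapln4 without rat 33 (-0.71, against 0.59 without rat 24-4) and Tnr minus Tnc without rat 12 (-0.34) or without rat 24-4 (-0.21, against 0.82 without rat 33). No paired analysis was possible because there is 1 group. Of the 10 genes, depth limits Acan most.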

Other observations

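Transcripts of sulfation enzymes can be compared within a rat. Chst11, which places sulfate at the 4-position of chondroitin, exceeded Chst3, which places it at the 6-position. The difference was 0.30, 0.60 and 0.36 on the log2(FPKM + 1) scale in rats 12, 24-4 and 33 (exact sign-flip p = 0.25, adjusted p = 0.286). Other sulfation genes, such as Chst12 and Chst13, were not part of this pair, so it does not give the balance of the enzymes. Chst3 itself had 3.21, 3.44 and 4.96 FPKM. The receptor phosphatases differed in the other direction, with Ptprz1 minus Ptprs at -1.22, -1.92 and -0.38 (exact sign-flip p = 0.25), so Ptprs exceeded Ptprz1 in each rat.

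Tnc minus Acan, a pair chosen after the values were seen, was 0.14, 1.07 and 2.76 on the log2(FPKM + 1) scale in rats 12, 24-4 and 33. As a ratio of FPKM this was 1.15, 2.94 and 13.4.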
